A study of Nothobranchius furzeri with 12 samples.

Results

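The 5 genes described here are atf3, cebpb, cebpd, crebzf and gadd45gb.1 of the turquoise killifish Nothobranchius furzeri, out of 25122 entries in the deposited count table. They were found by name: atf3, cebpd and crebzf carry their symbol in the table, and cebpb and gadd45gb.1 are entries LOC107391299 and LOC107375063, which took their symbol from NCBI's gene table through the same gene number. Each symbol matched 1 entry, and all 5 passed the filter on low counts. RNA was sequenced from neural retina with the retinal pigment epithelium (RPE) still attached, in 12 untreated males: 3 fish aged 1.5 months, 3 aged 3.0, 3 aged 4.5 and 3 aged 6.0 months. Every fish belonged to a mutant line bred back over generations to GRZ, a short-lived strain. Neither the mutated gene nor which fish carried it was stated in the labels used here, so age and any difference in genotype cannot be told apart. The libraries of 4.5 months replicates 2 and 3 carry the word Resub in their names, with no explanation in the labels.

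The genes belong to pathways that cells use when they are damaged, starved of amino acids, inflamed or burdened with misfolded protein. In mammals atf3, cebpb and cebpd encode basic leucine zipper (bZIP) transcription factors that are switched on within hours of such a challenge. In mice Atf3 marks injured retinal ganglion cells, and Cebpb and Cebpd act downstream of interleukin signalling through Stat3 in glia and macrophages. CREBZF, also called Zhangfei, is a bZIP protein of human and mouse that binds host cell factor HCFC1, pairs with other bZIP factors and represses the activity of several nuclear receptors. Gadd45 proteins are small stress sensors that bind kinases of the stress MAP kinase cascade and the replication factor PCNA, so gadd45gb.1 does not encode a transcription factor. In Xenopus and mouse embryos the gamma form of Gadd45 marks newly forming neurons.

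Levels are CPM, read counts scaled to a common library total, and changes are log2 ratios with their standard error (SE) from edgeR. The threshold was 0.05 on the p adjusted by Benjamini and Hochberg's method over 20717 tested genes. Rod markers summed to between 8486 and 24850 CPM and RPE markers to between 4490 and 14510 CPM, with 1 RPE entry of 14, lrata, at 0 in every library. Some libraries held RNA of eye tissue that the protocol dissects away. Lens genes summed to 16590 CPM in 6.0 months replicate 1, to 2182 in 4.5 months replicate 1 and to 829 in 1.5 months replicate 2, against 9.72 to 68.2 CPM in the others. In 1.5 months replicate 1, genes of surface epithelium and cornea reached 5442 CPM in sum and genes of fibroblasts and mural cells 6731 CPM, against 126 to 895 and 398 to 633 CPM elsewhere. In bulk tissue, fewer cells of a type and less RNA per cell cannot be told apart.

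The members behaved in 4 ways. The crebzf level was about 2-fold higher at 3.0 and 6.0 than at 1.5 months. In edgeR crebzf was the 1 member of 5 that passed in the test across all 4 ages, where 2.21% of all genes passed. DESeq2 called 3 of the 5 members in that test, crebzf, atf3 and gadd45gb.1, and 3170 genes in all. It was fitted to all of the 25122 entries but 751 with no counts, so more genes entered it than edgeR. gadd45gb.1 had a negative slope with age in edgeR, a test in which 1.17% of all genes passed and 1 member of 5 did. A step between ages can also give such a slope. The atf3 mean was highest at 6.0 months without passing in edgeR. cebpb and cebpd varied several-fold between fish of the same age and had no age difference past the threshold.

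**Figure D1:**
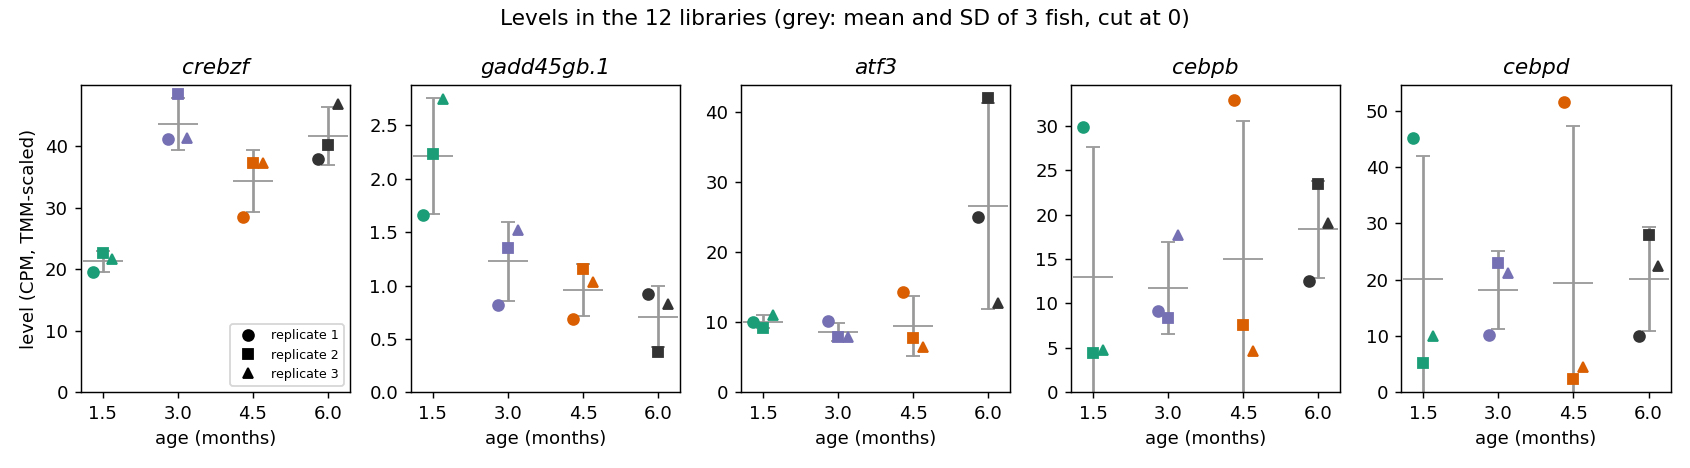
Levels of the 5 genes in the 12 libraries, in CPM on scaled library totals, against age in months, with a separate scale for each gene. Symbols mark the replicate number, and grey lines give the mean and SD of 3 fish, cut at 0. All 3 fish of 1.5 months lie below all later fish for crebzf and above them for gadd45gb.1, and single fish stand high for cebpb and cebpd at 1.5 and 4.5 months.

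The crebzf level was 19.5, 22.7 and 21.6 CPM in the fish of 1.5 months and 41.1, 48.5 and 41.2 CPM in those of 3.0 months. At 4.5 months it was 28.5, 37.2 and 37.3 CPM, and at 6.0 months it was 38.0, 40.1 and 46.9 CPM. The highest fish of 1.5 months stayed below the lowest of every later age, and the spread within an age was small. Means ± SD were 21.3 ± 1.66, 43.6 ± 4.23, 34.3 ± 5.07 and 41.6 ± 4.65 CPM at the 4 ages in order (n = 3 each). The mean SD within an age was 10.9% of the mean, against a median of 16.7% over all tested genes.

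crebzf rose between 1.5 and 3.0 months by a log2 change of 1.04 ± 0.14 (SE, edgeR adjusted p = 0.0408), where 0.0193% of all genes passed, and was 1 of 4 genes called. Between 1.5 and 4.5 months it rose by 0.69 ± 0.14 (edgeR adjusted p = 0.0271), where 3.03% of all genes passed. Between 1.5 and 6.0 months it rose by 0.97 ± 0.14 (edgeR adjusted p = 0.0163), where 2.78% of all genes passed, and ranked 18 of 20717 by p. These 3 comparisons share the fish of 1.5 months. Of the fish of 4.5 months, replicate 1 was at 28.5 CPM and the Resub libraries were at 37.2 and 37.3 CPM. Age and Resub cannot be told apart in the latter. In order of level the ages ran 1.5, 4.5, 6.0 and 3.0 months. The neighbours 4.5 and 6.0 months differed by log2 0.28 ± 0.14 (edgeR adjusted p = 0.334), and 6.0 and 3.0 months by -0.07 ± 0.14 (edgeR adjusted p = 0.962), neither past the threshold. The fish of 4.5 months all lay below those of 3.0 months, with log2 -0.35 ± 0.14 (edgeR adjusted p = 0.266). The slope over all ages, 0.16 ± 0.06 log2 per month, did not pass (edgeR adjusted p = 0.191).

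The size of the crebzf change moved little when a library was left out, but its calls did not all stay. For 3.0 against 1.5 months the log2 change stayed between 0.95 and 1.08 and the unadjusted edgeR p between 1.97e-06 and 7.88e-05, while the adjusted p stayed under 0.05 in 2 of 12 such fits, those without 4.5 months replicate 1 or 6.0 months replicate 2, and reached 0.254 in the others. For 6.0 against 1.5 months the log2 change lay between 0.88 and 1.03, and the call ended without 1.5 months replicate 1 (edgeR adjusted p = 0.0606), 1.5 months replicate 3 (0.0779) or 6.0 months replicate 1 (0.0535). For 4.5 against 1.5 months it lay between 0.63 and 0.81, and the call ended without replicate 1, 2 or 3 of 1.5 months (edgeR adjusted p = 0.0826, 0.0874 and 0.0895) and without either Resub library (0.131 and 0.118). The test of any age ended without each of the same 5 libraries (edgeR adjusted p = 0.0571 to 0.0818). Without all 4 libraries that held lens or surface tissue RNA, a fit that leaves a single fish at 1.5 months and assumes it to vary like the others, crebzf had log2 changes from 1.5 months of 1.01, 0.77 and 0.99 at the later ages in order (edgeR adjusted p = 0.394, 0.122 and 0.289). DESeq2 called crebzf in the same 3 comparisons, 3.0, 4.5 and 6.0 against 1.5 months, where it called 458, 2099 and 1900 genes in all.

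gadd45gb.1 rested on few counts, 20 to 130 per library. Its level was 1.66, 2.24 and 2.75 CPM at 1.5 months, then 0.813, 1.35 and 1.52 CPM at 3.0 months. It was 0.683, 1.16 and 1.03 CPM at 4.5 months and 0.921, 0.380 and 0.828 CPM at 6.0 months. All fish of 1.5 months lay above all later fish, and the later ages overlapped one another. The lowest library, 6.0 months replicate 2, had 20 counts, for which an exact 95% Poisson interval runs from 0.232 to 0.586 CPM. The lowest fish of 1.5 months had 68 counts, with an interval from 1.29 to 2.1 CPM. The highest later fish, 3.0 months replicate 3, had 62 counts, with an interval from 1.16 to 1.94 CPM. Those intervals overlap, so the order of this pair of fish lies within counting error. All of these intervals cover counting error only and may be too narrow, as 73.16% of counts from 1 to 20 were even.

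The gadd45gb.1 slope was -0.36 ± 0.08 log2 per month (edgeR adjusted p = 0.0491), just under the threshold. Group means ± SD were 2.21 ± 0.545, 1.23 ± 0.368, 0.956 ± 0.246 and 0.709 ± 0.289 CPM in order of age (n = 3 each). Between 1.5 and 6.0 months the log2 change was -1.64 ± 0.41 (edgeR adjusted p = 0.0549), and between 1.5 and 4.5 months -1.21 ± 0.40 (edgeR adjusted p = 0.112), neither past the threshold. No 2 neighbouring ages differed past it. With 1 library left out, the slope lay between -0.40 and -0.31, and the call stayed in 1 of 12 fits, that without 3.0 months replicate 1 (edgeR adjusted p = 0.0428), and ended in the other 11 (0.0518 to 0.188). DESeq2 called gadd45gb.1 for any age (adjusted p = 0.00621) and for the slope, beside 3170 and 1131 genes in all. It also called gadd45gb.1 for 6.0 against 1.5 months (adjusted p = 0.00286) and for 4.5 against 1.5 months (adjusted p = 0.0351), beside 1900 and 2099 genes.

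**Figure D2:**
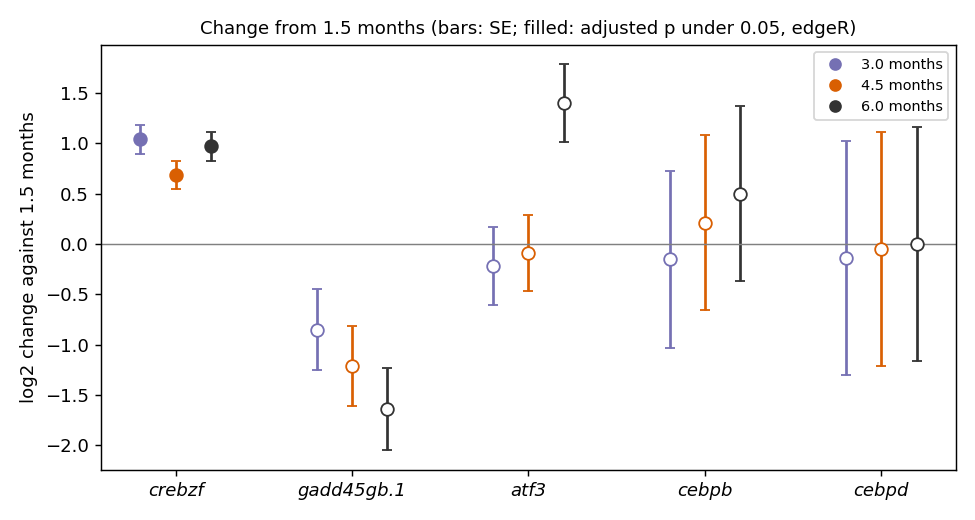
Log2 change of each gene at each later age against 1.5 months, from edgeR, with bars for the SE and filled points for adjusted p under 0.05. The 3 comparisons share the fish of 1.5 months. The 3 filled points belong to crebzf, at 1.04, 0.69 and 0.97, and the bars of cebpb and cebpd span 0 at every age.

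atf3 stood at 9.98, 9.16 and 11.1 CPM in the fish of 1.5 months and at 10.1, 7.89 and 7.88 CPM at 3.0 months. It stood at 14.3, 7.74 and 6.40 CPM at 4.5 months and at 25.03, 42.0 and 12.7 CPM at 6.0 months. All 3 fish of 6.0 months were above all fish of 1.5 and of 3.0 months, but 6.0 months replicate 3 was below 4.5 months replicate 1. The spread grew from an SD of 9.46% of the mean at 1.5 months to 55.4% at 6.0 months. Means ± SD were 10.1 ± 0.953, 8.63 ± 1.28, 9.48 ± 4.24 and 26.6 ± 14.7 CPM (n = 3 each).

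None of the atf3 differences passed in edgeR. The log2 change was 1.40 ± 0.39 for 6.0 against 1.5 months (adjusted p = 0.079), 1.62 ± 0.39 against 3.0 months (adjusted p = 0.362) and 1.49 ± 0.39 against 4.5 months (adjusted p = 0.0926). In DESeq2 the same 3 changes had adjusted p of 0.00637, 0.00647 and 0.00388, beside 1900, 201 and 1190 genes called in all. DESeq2 also called atf3 for any age (adjusted p = 0.000196) and for the slope (adjusted p = 0.0494), beside 3170 and 1131 genes. Without 6.0 months replicate 2, the highest fish, the change against 1.5 months was 0.90 (edgeR adjusted p = 0.221). Without the 3 libraries with lens RNA that change was 1.36 (edgeR adjusted p = 0.176). Without 4.5 months replicate 1 or 6.0 months replicate 3 it passed in edgeR, at log2 1.40 (adjusted p = 0.0395) and 1.74 (adjusted p = 0.0317). Microglia and macrophage markers (19 entries) summed to 263 CPM in 6.0 months replicate 2 and 152 CPM in 6.0 months replicate 1, against 53.2 to 132 CPM in the other libraries, and 7 of their 18 tested genes rose from 1.5 to 6.0 months, where 2.78% of all genes passed. Rod markers summed to 9902, 8486 and 12520 CPM in replicates 1, 2 and 3 of 6.0 months. All 3 lay below every younger fish, which ran from 15080 to 24850 CPM. The part of either in the atf3 levels was not tested.

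The genes below followed atf3 most closely over the 12 libraries among 11158 genes with a name and a mean of at least 5 CPM. These were gpnmb, which encodes a membrane glycoprotein of pigment cells and phagocytes (Pearson r = 0.959), the neurotrophic cytokine gene cntf (0.947) and the zinc exporter gene slc30a1 (0.942). These values describe the 12 libraries, were picked as the highest of many, and share fish, depth and age. With the mean of each age removed they were 0.901, 0.914 and 0.951. In 6.0 months replicate 2, the fish with the highest atf3, gpnmb reached 241 CPM, slc30a1 149 CPM and cntf 28.1 CPM, while in 6.0 months replicate 3 they stood at 11.6, 35.2 and 7.82 CPM. Of the 3, cntf rose between 1.5 and 6.0 months (log2 1.74 ± 0.41, edgeR adjusted p = 0.0464), and gpnmb (3.77 ± 1.11, edgeR adjusted p = 0.105) and slc30a1 (1.53 ± 0.47, edgeR adjusted p = 0.106) did not pass. The 3 were picked for following atf3 in these same fish, so their changes are no separate support for that of atf3.

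**Figure D3:**
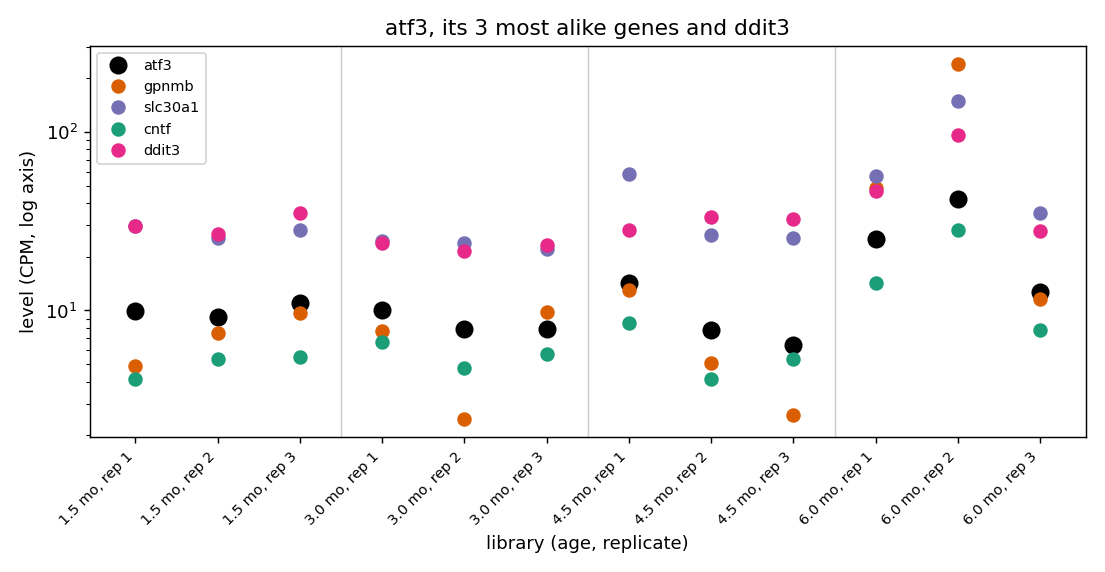
Levels in CPM, on a log axis, of atf3, its 3 most alike genes and ddit3 in each of the 12 libraries, ordered by age and replicate. All 5 are highest in 6.0 months replicate 2, where gpnmb stands at 241 CPM and atf3 at 42.0 CPM, and 6.0 months replicate 3 lies near the younger fish.

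cebpb and cebpd had the widest spread of the members. cebpb was at 29.8, 4.47 and 4.78 CPM at 1.5 months and at 9.18, 8.34 and 17.7 CPM at 3.0 months. It was at 32.9, 7.55 and 4.59 CPM at 4.5 months and at 12.6, 23.4 and 19.1 CPM at 6.0 months. A single fish stood far above the others at 1.5 and at 4.5 months, in each case replicate 1, and all ages overlapped. Group means ± SD were 13.0 ± 14.6, 11.7 ± 5.19, 15 ± 15.6 and 18.4 ± 5.47 CPM (n = 3 each). The change from 1.5 to 6.0 months was log2 0.50 ± 0.87 (edgeR adjusted p = 0.787).

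cebpd was at 45.1, 5.14 and 9.90 CPM at 1.5 months and at 10.2, 22.9 and 21.2 CPM at 3.0 months. At 4.5 months it was at 51.5, 2.27 and 4.43 CPM, and at 6.0 months at 9.91, 27.9 and 22.4 CPM. Its highest and lowest fish, 22.7-fold apart, were both of 4.5 months. The lowest, replicate 2, is a Resub library, and so is replicate 3, the next lowest. Group means ± SD were 20.1 ± 21.8, 18.1 ± 6.88, 19.4 ± 27.8 and 20.1 ± 9.23 CPM (n = 3 each), so the means lay close together while the fish did not. The change from 1.5 to 6.0 months was log2 0.00 with an SE of 1.16 (edgeR adjusted p = 0.999), an error that leaves changes of over 2-fold in either direction undecided. The mean SD within an age was 84.1% of the mean for cebpd and 72.3% for cebpb, against the median of 16.7% over all genes, which places them above 97.2% and 95.7% of tested genes.

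The fish high in cebpb were also high in cebpd. Over the 12 libraries Pearson r of their log2 levels was 0.829 (permutation p = 0.00114, adjusted over 10 pairs of members 0.0114) and Spearman rho was 0.874 (permutation p = 0.00043, adjusted 0.0043). It was 0.715 without the 2 fish farthest from the median of cebpb, replicates 1 of 1.5 and of 4.5 months, and 0.876 with the mean of each age removed. None of the other 9 pairs of members passed after adjustment. The next largest Pearson r was -0.628, for atf3 and gadd45gb.1 (permutation p = 0.03, adjusted 0.15). It was -0.231 without 6.0 months replicates 1 and 2 and -0.682 with the mean of each age removed. With age means removed, crebzf had r of -0.72 with atf3, -0.684 with cebpb, -0.587 with cebpd and 0.49 with gadd45gb.1. Before that they were 0.0869, 0.0608, -0.0532 and -0.574. Values with age means removed were not tested. The permutations shuffled all 12 libraries without regard to age or neighbouring tissue. Their p does not show a link particular to a pair.

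**Figure D4:**
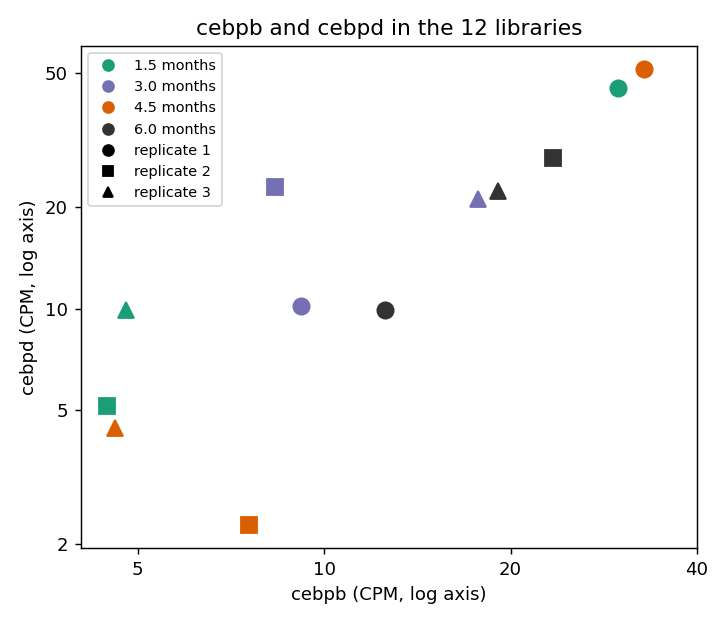
cebpd against cebpb in the 12 libraries, both in CPM on log axes, with colour for age and symbol for replicate number. Replicates 1 of 1.5 and of 4.5 months lie together at the upper right, and fish of every age are spread along the diagonal.

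Marker sums of other tissue and of cell types differed in the 2 fish with the most cebpb and cebpd. Replicate 1 of 1.5 months held the surface epithelium and fibroblast RNA described above. Replicate 1 of 4.5 months had the highest sums of neutrophil and granulocyte markers (111 CPM, against 17.8 to 67.5 CPM elsewhere, 10 entries) and of erythrocyte markers (241 CPM, against 39.7 to 134 CPM, 8 entries). Mueller glia markers (19 entries) also summed highest there, at 6139 CPM, and lowest in the Resub libraries, at 3233 and 3372 CPM. They summed to 5743 CPM in 1.5 months replicate 1, but also to 5703 CPM in 3.0 months replicate 1, with 10.2 CPM of cebpd. 6.0 months replicate 1 had the most lens RNA and 9.91 CPM of cebpd. The next most lens RNA, 2182 CPM in sum, was in 4.5 months replicate 1, with 51.5 CPM of cebpd. The part of such tissue and cell types in the levels was not tested. Without 4.5 months replicate 1 the cebpd change from 3.0 to 4.5 months turned from log2 0.10 to -2.43 (edgeR adjusted p = 0.227). Without all 4 libraries with neighbouring tissue it was -2.45 (edgeR adjusted p = 0.0484), a setting chosen after the data were seen, and it then sets 3 fish against the 2 Resub libraries, so age and Resub cannot be told apart there.

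The 3 genes most alike to cebpb were fam83ha (r = 0.937), pdlim5b, a PDZ and LIM domain gene (0.889), and the ETS factor gene elf4 (0.865). Those most alike to cebpd were again fam83ha (0.909), the Myc family gene mych (0.899) and zfp36l2, which encodes a protein that speeds mRNA decay (0.896). None of these 5 genes passed between 1.5 and 6.0 months in edgeR, with adjusted p from 0.521 to 0.849. For crebzf they were simc1 (0.964), the centrosome gene fgfr1op (0.961) and csgr11h9orf84 (0.960). These 3 rose from 1.5 to 6.0 months by log2 1.07 ± 0.16, 0.86 ± 0.17 and 1.31 ± 0.26 (edgeR adjusted p = 0.0177, 0.0296 and 0.030). For gadd45gb.1 they were atoh7 (0.944), a transcription factor gene of retinal neurogenesis, the small GTPase gene rab42a (0.936) and the histone H3 gene h3f3c (0.922). atoh7 was at 7.18, 7.82 and 10.7 CPM in the fish of 1.5 months and at 3.05, 1.52 and 4 CPM in those of 6.0 months. All of these r values are over 12 libraries and describe them only. The genes were picked for following a member in these same fish. Their own changes with age partly come from that choice and are no separate support for the member's change.

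No member passed between 3.0 and 4.5, 3.0 and 6.0 or 4.5 and 6.0 months in edgeR, where 0.319%, 0% and 0.599% of all genes passed. At an unadjusted edgeR p under 0.05 there was 1 member in each, crebzf in the first and atf3 in the other 2. This stood beside 14.7%, 8.35% and 16.6% of all genes. DESeq2 called 0, 1 and 1 members there, beside 907, 201 and 1190 genes in all. Between 1.5 and 6.0 months the levels of the older and younger fish were fully separate for 3 of 5 members, atf3, crebzf and gadd45gb.1, beside 30.6% of all genes. Between 1.5 and 3.0 months and between 1.5 and 4.5 months this held for 2 members each, crebzf and gadd45gb.1, beside 21.5% and 26.4% of all genes. In the 3 comparisons among later ages it held for 1 member each, crebzf for 3.0 and 4.5 months, atf3 for 3.0 and 6.0 months and crebzf for 4.5 and 6.0 months, beside 18.3%, 13.6% and 21.1% of all genes.

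Of 19 tested ATF and CREB family genes, 1 rose between 1.5 and 6.0 months, batf2 (0.647 to 2.02 CPM, log2 1.64 ± 0.36, edgeR adjusted p = 0.0382), with a median of -0.06 against -0.01 over all genes. With 2.78% of all genes passing, 1 of 19 is near the background, and 5 of the 19 had an unadjusted p under 0.05, beside 20.4% of all genes (1 in DESeq2). Of 4 other C/EBP genes none passed between 1.5 and 6.0 months in edgeR (1 at an unadjusted p under 0.05, 0 in DESeq2), with a median of 0.83 and 3 of 4 changes above 0. Among them ddit3, which encodes the stress factor CHOP, was at 46.4, 96.5 and 28.0 CPM in the fish of 6.0 months and at 29.8, 26.7 and 35.2 CPM at 1.5 months (log2 0.90 ± 0.33, edgeR adjusted p = 0.161), so 6.0 months replicate 2 was the highest as for atf3. The partner gene cebpg was at 47.0 and 44.4 CPM at these ages. Of 8 AP-1 genes none passed between 1.5 and 6.0 months in edgeR (1 at an unadjusted p under 0.05, 1 in DESeq2; median 0.28), with fosl2 at 108 and 120 CPM and the entry deposited as jun at 27.5 and 36.4 CPM. A second entry that took the name jun from NCBI's table, outside the naming rule and named after its values were seen, was at 12 ± 2.18 and 39.6 ± 32.7 CPM (SD, n = 3 each), with log2 1.72 ± 0.47 (edgeR adjusted p = 0.0789).

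Of 5 other entries of the Gadd45 list none passed between 1.5 and 6.0 months in edgeR, with a median of 0.03. At an unadjusted p under 0.05 there was 1, beside 20.4% of all genes, and DESeq2 called 1. The paralog entry gadd45g was at 34.6, 26.2 and 32.4 CPM at 1.5 months and at 45.9, 79.7 and 82.4 CPM at 6.0 months (log2 1.16 ± 0.41, edgeR adjusted p = 0.147). Between these ages the difference was opposite in sign to that of gadd45gb.1. At 3.0 months gadd45g was at 59.4, 77.2 and 95.8 CPM. At 4.5 months it was at 79.1, 20.5 and 41.1 CPM, the lower values from the Resub libraries, so it showed no steady rise with age. gadd45ab, gadd45b and gadd45aa had log2 changes of 0.03, 0.56 and -0.37, and gadd45gip1, which encodes a binding partner and not a Gadd45 protein, had -0.10. The authors' handling of reads shared by paralogs is not given in the sources used, so the split between gadd45g and gadd45gb.1 is uncertain.

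Other lists linked to stress were described the same way for 6.0 against 1.5 months. Over all genes 2.78% passed there in edgeR, 20.4% had an unadjusted p under 0.05, and DESeq2 called 1900 genes. Of 19 integrated stress response genes none passed in edgeR (1 at an unadjusted p under 0.05, 0 in DESeq2; median 0.03), with the amino acid transporter genes slc3a2 at 512 and 358 CPM and slc7a5 at 403 and 398 CPM. Of 19 unfolded protein response genes none passed (5 at an unadjusted p under 0.05, 2 in DESeq2, median -0.08). That list also included symbols of host cell factor HCFC1. Of its chaperone genes, calr was at 222 and 193 CPM and hsp90b1 at 193 and 203 CPM. Of 15 immediate early genes none passed (0 at an unadjusted p under 0.05, 0 in DESeq2; median 0.16), with egr1 at 71.6 and 102 CPM and sik1 at 82.6 and 92.4 CPM. Of 19 stress MAP kinase genes none passed (3 at an unadjusted p under 0.05, 2 in DESeq2, median 0.00). The phosphatase gene dusp10 fell from 1.5 to 4.5 months (log2 -0.58 ± 0.11, edgeR adjusted p = 0.0251), where 3.03% of all genes passed.

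Of 15 genes of interleukin 6 and Stat3 signalling, 2 rose between 1.5 and 6.0 months, where 2.78% of all genes passed, with a median of 0.72. At an unadjusted p under 0.05 there were 12 of 15, beside 20.4% of all genes, and DESeq2 called 2. The 2 that rose in edgeR were cntf and stat3 (124 to 242 CPM, log2 0.96 ± 0.23, edgeR adjusted p = 0.0464). A further one, the kinase gene jak2a, rose from 1.5 to 4.5 months (log2 0.56 ± 0.11, edgeR adjusted p = 0.0292), where 3.03% of all genes passed. At 4.5 months jak2a was at 22.3 CPM in replicate 1 and at 28.1 and 27.6 CPM in the Resub libraries. Age and Resub cannot be told apart in the latter. At 6.0 months stat3 was at 221, 349 and 155 CPM in replicates 1, 2 and 3, in the same order of fish as atf3. Microglia and macrophage markers, of which 7 of 18 rose with a median of 1.76, also summed highest in replicate 2, and their part in the levels of this list was not tested. Of 18 p53 pathway genes 2 fell and none rose between 1.5 and 6.0 months, with a median of 0.07 (5 at an unadjusted p under 0.05, 4 in DESeq2). The nucleotide enzyme gene rrm2b fell by 0.68 on the log2 scale (SE 0.12, edgeR adjusted p = 0.0201) and the cyclin gene ccng2 by 0.49 (SE 0.11, edgeR adjusted p = 0.0361).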

How the data were processed

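The authors deposited whole-number read counts per gene with no normalization, per the values in the file; the aligner, counter, annotation and build are not given in the sources used here, so no coordinates or sequences are printed. Libraries were made with Nextera XT, per the labels' protocols, and total counts ran from 34.44 M to 50.27 M. Among counts from 1 to 20, 73.16% were even, as where each read pair adds 2, so Poisson intervals may be too narrow. The authors' deposited normalized table (signal values) equals count + 1 over 1 scaling number for each library (within 0.001 for 100% of 23678 shared genes) and only checked the counts. A second count table was identical.

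Of 14589 entries named by locus number, 5257 took a symbol from NCBI's NfurGRZ-RIMD1 table. In R 4.3.3 with edgeR 4.0.16, filterByExpr (minimum count 10, minimum total 15) kept 20717 genes. TMM, estimateDisp, robust glmQLFit and glmQLFTest gave the tests: 1 fit of all libraries by age for any age and 6 contrasts, and 1 for the slope. SE was taken as the absolute log2 change over root F. The scripts were tested on simulated data. Alternatives were DESeq2 1.42.0, RLE factors, no filter, a replicate block, and sets of libraries left out. Members and lists were chosen with earlier results of these data known. From lists, genes past the threshold (at most 5) or the 2 of highest mean were named; others are said to be chosen later. Lists are described by counts and medians, with no set test. Replicates are separate fish, per the labels. With 3 fish against 3, an exact permutation test cannot go below p = 0.1, so the tests rest on spread shared across genes.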

Additional observations from a re-analysis of the deposited data

How the results depend on the processing

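Effects of the members on the log2 scale depended on the setting mainly for cebpb and cebpd. Genes passing are given for any age, 6.0, 3.0 and 4.5 against 1.5 months, 4.5 and 6.0 against 3.0, 6.0 against 4.5 months, and the slope. With edgeR there were 458, 575, 4, 627, 66, 0, 124 and 242, and with DESeq2 3170, 1900, 458, 2099, 907, 201, 1190 and 1131. At 6.0 against 3.0 months, 1730 genes had an unadjusted edgeR p under 0.05. Leaving out 1 library gave 7 to 2416, 8 to 1184, 0 to 196, 5 to 2841, 2 to 795, 0 to 1, 0 to 1137 and 14 to 334. For any age and for 4.5 against 1.5 months the highest, 2416 and 2841, came without 4.5 months replicate 1. Without 4.5 months replicate 2 or 3, the Resub libraries, 4.5 against 1.5 months gave 7 and 5. RLE factors gave 100 for 4.5 against 3.0 months. Without the 3 libraries with lens RNA the counts were 0, 0, 1029 and 440 for 6.0, 3.0 and 4.5 against 1.5 and 4.5 against 3.0 months, 203 for 6.0 against 4.5 and 1 for the slope. Without the 4 libraries with neighbouring tissue, chosen after seeing the data, they were 94 for any age, then 0, 0, 89, 207, 57 for 6.0 against 4.5 months and 0 for the slope. Without the Resub libraries they were 50 for any age and 1 for 3.0 against 1.5 months. With only the 2 ages in the fit they were 0 for 3.0 against 1.5, 107 for 4.5 against 1.5, and 0 for 4.5 against 3.0 and 6.0 against 4.5 months. Fits without 4.5 months replicate 1, alone or with the other libraries of lens or neighbouring tissue, keep only the Resub libraries at 4.5 months. Age and Resub cannot be told apart at 4.5 months in such fits. The causes were not tested.

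Same-numbered replicates had r over 0.1 in 8 of 18 pairs, from -0.315 to 0.302, and different-numbered ones ran from -0.398 to 0.469. Of 12 libraries, 4 correlated best with their own number. The check gave no sign that the numbers pair the fish, but it cannot exclude it, as RNA of neighbouring tissue also enters these deviations. With the replicate number as a block, genes passing were 214 for any age, 10 for 3.0 against 1.5, 47 for 6.0 against 4.5 months and 141 for the slope, and gadd45gb.1 had a slope of -0.35 (edgeR adjusted p = 0.0702). With the block, cebpb and cebpd turned to 0.42 and 0.66 for 3.0 against 1.5 months and to -0.16 and -0.98 for 4.5 against 3.0 months.

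Other changes of sign were of values that had not passed. For 6.0 against 1.5 months cebpd was -0.01 with DESeq2, -0.004 with RLE factors, -0.002 with no filter and with only the 2 ages, -0.003 without the Resub libraries and -0.15 without the lens libraries. Without the lens libraries cebpb was -1.53 for 4.5 against 1.5 months and the cebpd slope was -0.09. With those or all 4 left out, atf3, cebpb and cebpd were -0.30, -0.96 and -2.45 for 4.5 against 3.0 months, the last past the threshold with all 4 out, and cebpb and cebpd were 1.29 and 0.87 for 3.0 against 1.5 months with all 4 out. Leaving out 1 library, cebpd lay at -0.45 to 1.42, -0.60 to 1.27, -2.58 to 1.36, -2.43 to 0.62, -0.17 to 0.47 and -0.47 to 2.58 in the 6 contrasts in the order above, with a slope of -0.07 to 0.24. In the same fits cebpb lay at -0.58 to 1.34 for 3.0 against 1.5, -1.10 to 1.70 for 4.5 against 1.5, -0.95 to 0.78 for 4.5 against 3.0 and -0.13 to 1.60 for 6.0 against 4.5 months. atf3 lay at -0.51 to 0.13 for 4.5 against 1.5 and -0.29 to 0.35 for 4.5 against 3.0 months, and crebzf at -0.16 to 0.02 for 6.0 against 3.0 months. The gadd45gb.1 slope also ended its call with no filter (edgeR adjusted p = 0.0541), without the lens (0.2) or Resub libraries (0.0665) and without all 4 (0.391). The crebzf calls ended without the lens libraries for 6.0 (edgeR adjusted p = 0.0571) and 3.0 against 1.5 months (0.0921), without the Resub libraries for 3.0 (0.0554), and with only the 2 ages for 3.0 (0.0622) and 4.5 months (0.0682). With 3 fish per age and an SE of 1.16 for cebpd, its differences among the ages stay undecided.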
